A study of Mus musculus with 8 samples.

Results

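Dopaminergic neurons of the substantia nigra pars compacta (SNc) were compared with those of the ventral tegmental area (VTA) in newborn mice, over wild-type (WT) and Pitx3 mutant (KO) pups at once. All 8 arrays of the series entered the comparison, 4 from SNc and 4 from VTA, with genotype as an additive term. A gene belonged to the comparison when it was read by a probeset carrying 1 gene symbol and when its mean reached a linear signal of 60, which is 5.91 on the log2 scale, in at least 1 of the 4 groups. This held for 14666 of the 21789 probesets with 1 symbol, and these read 13264 of the 19938 genes on the array. The test was limma, which fits a linear model to each probeset and draws on all probesets to estimate its variance. A regional difference was called where it gave a p under 0.05 after Benjamini-Hochberg adjustment, and only when the sign was the same in WT and in KO.

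The pups were C57Bl/6 mice aged P1-P4. The WT groups carried Pitx3+/+;Th-EGFP+/- and the KO groups Pitx3-/-;Th-EGFP+/-, so every animal carried the TH-EGFP transgene that was used to pick the cells. The lateral part of the ventral midbrain was taken as SNc and the medial part as VTA, and live cells (negative for propidium iodide) with EGFP were sorted. Each of the groups SNc WT, VTA WT, SNc KO and VTA KO had 2 arrays, and the RNA of each array came from pooled, stored batches of sorted cells. Whether both pools of a group came from different animals is not stated, so each p speaks only for these pools. In the additive fit the residual spread also holds any change of the regional difference between the genotypes. A gene whose difference varied in size between WT and KO therefore had a larger SE there. By the methods, neurons that depend on Pitx3 are already lost from the SNc of the KO at this age, so that SNc KO and SNc WT do not hold the same kinds of cell.

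Both regions hold neurons that make dopamine with the same enzymes and store and recapture it with the same transporters. SNc neurons project mainly to the dorsal striatum and are known for their loss in Parkinson disease, whereas VTA neurons project mainly to the ventral striatum and cortex and are less vulnerable. The VTA lies medially in the ventral midbrain. Ependymal cells, which line the ventricles, bear motile cilia. In bulk samples such as these, fewer cells of a type and less RNA per cell cannot be told apart.

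Array medians lay between 6.11 and 6.13 in SNc and between 6.17 and 6.24 in VTA. The share of probesets over the minimum was 55.0 to 55.6% in SNc and 56.6 to 58.9% in VTA. Every VTA array was thus slightly above every SNc array in both measures. Calls after rescaling of the arrays are given below. The sorted cells carried the markers of midbrain dopaminergic neurons in every array. Th, which encodes tyrosine hydroxylase, read 10.01 to 10.34, and Slc6a3, the dopamine transporter gene, read 9.48 to 11.00. The transcription factor genes Nr4a2, Foxa2, En1 and Lmx1b were above the minimum in all 8 arrays. Pitx3 did not separate the genotypes. It read 7.72 and 7.63 in SNc WT, 7.87 and 7.94 in SNc KO, 8.10 and 7.84 in VTA WT and 8.08 and 7.92 in VTA KO. Which exons are deleted and which are probed is not stated, so this reading does not check the labels, and KO means the arrays labelled so.

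Across both genotypes, 117 probesets were called, which is 0.798% of the 14666 tested. Of these, 45 were higher in SNc (0.307%) and 72 were lower in SNc (0.491%), and they stood for 45 and 63 genes. An unadjusted p under 0.05 was reached by 3881 probesets (26.5%), 2310 of them higher (15.8%) and 1571 lower (10.7%). The called differences ranged from -3.53 to 1.77 on the log2 scale, and the smallest had a size of 0.42. A size of at least 2-fold was reached by 12 of the higher and 51 of the lower probesets. Of the 45 higher probesets, 40 were above the minimum in all 4 groups. This held for only 23 of the 72 lower probesets. The minimum lay below the median of every array, so passing it does not show that a gene is expressed. The 4 SNc arrays and the 4 VTA arrays did not overlap for 115 of the 117 called probesets, and did not overlap for 2705 of all tested (18.4%, with 10.6% higher and 7.89% lower in SNc).

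**Figure D1:**
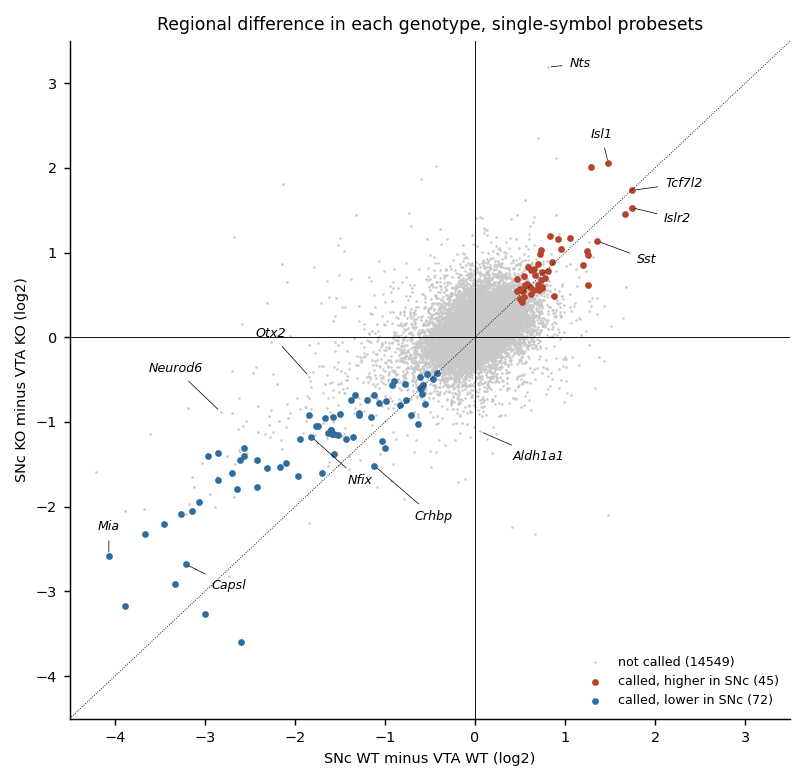
Difference between SNc and VTA in WT (x axis) and in KO (y axis), both as SNc minus VTA on the log2 scale, for each of the 14666 single-symbol probesets tested. The 45 probesets called higher in SNc lie in the upper right and the 72 called lower in the lower left, while Nts, Otx2, Neurod6 and Aldh1a1 are labelled though they were not called.

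The regional differences within WT and within KO rest on different arrays. Of the probesets tested, 68.3% had the same sign in both. Of the 351 with a difference of at least 2-fold in WT, 294 had the same sign in KO (83.8%), and 104 reached 2-fold in KO as well. Only 7 reached 2-fold in the opposite direction. Among probesets with at least 2-fold in both genotypes, 10 were higher in SNc, and 8 of these were called. These 8 were Isl1, Tcf7l2, Gng8, Islr2, Tfap2b, Sst, Eif4h and Pax6. The other two, Grm3 and Ammecr1, had differences of 1.12 and 1.19 with adjusted p of 0.0515 and 0.0667 in limma. In the lower direction 94 probesets reached 2-fold in both genotypes, and 42 were called.

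The number of calls depended on single arrays. Without VTA KO replicate 2 there were 706 calls, which included all 117. Without any other array there were between 0 and 28. The count was 0 without VTA WT replicate 2, where 2880 probesets still had an unadjusted p under 0.05. It was 3 without SNc WT replicate 1, 8 without SNc WT replicate 2, 28 without SNc KO replicate 1, 12 without SNc KO replicate 2, 12 without VTA WT replicate 1 and 3 without VTA KO replicate 1. All 117 kept their sign in each of these fits. Where the regions did not overlap, as in 115 of them, the sign could not reverse in such fits. Tcf7l2 and Akap14 stayed called in 7 of the 8 and Capsl in 6, and no probeset was called in all 8. The spread between arrays was also widest in VTA KO, at 0.376 against 0.241 to 0.252 in the other groups (SD on the log2 scale, 2 arrays).

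Among genes higher in SNc, transcription factors with roles in regional identity led. Tcf7l2 encodes a nuclear effector of Wnt signalling. It read 9.15 and 9.27 in SNc WT, 9.62 and 9.74 in SNc KO, 7.55 and 7.38 in VTA WT and 8.15 and 7.74 in VTA KO. Every SNc array was above every VTA array. The difference was 1.74 ± 0.11 (SE, 4 arrays against 4), or 3.34-fold, with an adjusted p of 0.00618 in limma, the smallest of all. It was 1.75 in WT and 1.73 in KO. With single arrays left out it ranged from 1.66 to 1.82.

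Isl1, a LIM homeodomain factor best known from motor neurons and forebrain neurons, had the largest difference among the called genes in this direction. It read 7.86 and 7.78 in SNc WT, 8.53 and 8.01 in SNc KO, 6.49 and 6.19 in VTA WT and 6.50 and 5.93 in VTA KO. The groups did not overlap, and the VTA levels lay just above the minimum. The difference was 1.77 ± 0.20 (SE, 4 arrays against 4), or 3.40-fold, with an adjusted p of 0.0222 in limma. Isl1 also stood in the list of red nucleus and oculomotor neurons, of which Chat, Slc5a7 and Pou4f1 were below the minimum and Slc18a3 and Prph had differences of -0.55 and -0.08 that were not called.

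Pax6, a paired-box factor of neural patterning, read 7.52 and 7.37 in SNc WT, 8.07 and 7.38 in SNc KO, 6.33 and 6.45 in VTA WT and 6.48 and 6.63 in VTA KO. Its difference of 1.11 ± 0.15 (adjusted p of 0.0384 in limma) was alike in WT and KO, at 1.05 and 1.17. Tfap2b, an AP-2 family factor, read 6.84 and 7.10 in SNc WT, 7.20 and 7.98 in SNc KO, 5.30 and 5.31 in VTA WT and 6.48 and 5.78 in VTA KO. Its mean was therefore below the minimum in VTA WT but not in VTA KO, and its difference was 1.56 ± 0.21 (adjusted p of 0.0384). Of 38 tested members of the list of positional homeobox, Pax and patterning factors, 3 were called higher (Isl1, Tcf7l2 and Pax6) and 1 was called lower (Nfix), where 0.324 and 0.415% of all genes tested by their brightest probeset were called higher and lower. The median of this list was 0.07, against 0.06 over all genes tested. Of the 36 tested genes of the Wnt pathway only Tcf7l2 was called, and the median was -0.06.

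**Figure D2:**
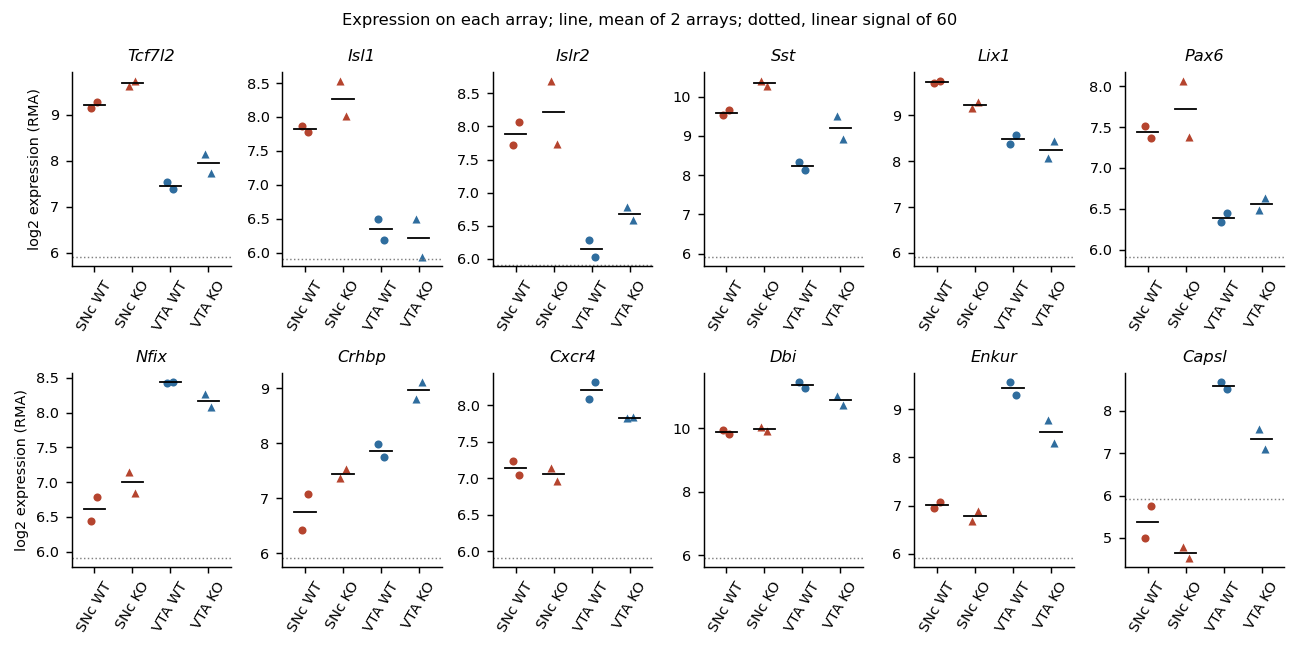
Expression of 12 called genes on each of the 8 arrays (log2, RMA), with circles for WT, triangles for KO, red for SNc, blue for VTA and a line at the mean of the 2 arrays of a group; each panel has its own scale. In none of the 12 genes does an SNc array overlap with a VTA array, and the SNc values of Capsl lie under the dotted line at a linear signal of 60.

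Among neuropeptides, Sst was higher in SNc. Sst encodes somatostatin, a peptide of many inhibitory neurons. It read 9.52 and 9.66 in SNc WT, 10.41 and 10.28 in SNc KO, 8.34 and 8.13 in VTA WT and 9.50 and 8.91 in VTA KO. The lowest SNc array was only just above the highest VTA array, and both regions read higher in KO than in WT. With genotype in the model the difference was 1.24 ± 0.14, or 2.37-fold, with an adjusted p of 0.0241 in limma. It was 1.35 in WT and 1.14 in KO. Without the genotype term the adjusted p was 0.0900. Of 28 tested genes of neuropeptides and related secreted peptides Sst was the only one called, and the median of the list was -0.07.

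Other peptide genes had differences that were not called, and all but Nts were picked here after their values were seen. Nts (neurotensin), a member of the VTA marker list, had a difference of 1.996 toward SNc, with 0.80 in WT and 3.19 in KO, and an adjusted p of 0.0802. Its arrays did not overlap, at 7.86, 7.97, 8.78 and 9.12 in SNc against 7.12, 7.10, 5.46 and 6.08 in VTA. Gal (galanin) and Tac1 (precursor of substance P) had differences of 1.52 and 1.51, and both were larger in KO (2.35 and 2.12) than in WT (0.70 and 0.89). Npy (neuropeptide Y) differed by 0.70, with 0.78 in WT and 0.62 in KO and an adjusted p of 0.0510. In the opposite direction, Nms (neuromedin S) and Cbln4 (a cerebellin of the synaptic cleft) had differences of -0.87 and -0.73.

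Gad1, which encodes a GABA-synthesizing enzyme, was higher in SNc. It read 7.18 and 7.09 in SNc WT, 7.62 and 7.12 in SNc KO, 6.18 and 6.19 in VTA WT and 6.56 and 6.10 in VTA KO. The groups did not overlap, and the difference was 0.996 ± 0.143 (adjusted p of 0.0417 in limma). The other genes of the GABAergic list were not called. Gad2, the gene of the other such enzyme, differed by -0.25, Slc32a1, the vesicular GABA transporter gene, by 0.16, and Dlx5, a homeodomain factor of forebrain GABA neurons, by 1.03. Of 7 tested genes of the GABAergic list Gad1 alone was called, and the summed linear signal of the list was 1068 to 1790 in SNc and 1067 to 1565 in VTA, so that the ranges overlapped.

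Several genes of the neuronal membrane and its signalling were higher in SNc. Islr2 encodes a leucine-rich repeat protein of growing axons. It read 7.71 and 8.06 in SNc WT, 8.69 and 7.73 in SNc KO, 6.28 and 6.02 in VTA WT and 6.78 and 6.59 in VTA KO, without overlap. The difference was 1.63 ± 0.21, or 3.10-fold (adjusted p of 0.0319 in limma). Gng8, a G protein gamma subunit, read 7.68 and 7.75 in SNc WT, 8.19 and 8.78 in SNc KO, 6.19 and 6.67 in VTA WT and 6.04 and 6.90 in VTA KO. Its difference was 1.65 ± 0.26, with an adjusted p of 0.0480. Slitrk1, a synaptic and axonal membrane protein, was 0.88 higher, with SNc arrays of 8.10 to 8.54 and VTA arrays of 7.15 to 7.55. Vav3, a guanine nucleotide exchange factor, was 1.03 higher, and its mean was below the minimum in VTA KO.

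Lix1, a gene of the SNc marker list, was well above the minimum in every array. It read 9.70 and 9.76 in SNc WT, 9.16 and 9.30 in SNc KO, 8.39 and 8.57 in VTA WT and 8.07 and 8.44 in VTA KO. The lowest SNc array was 0.59 above the highest VTA array. The difference was 1.11 ± 0.11 (adjusted p of 0.0219 in limma), with 1.25 in WT and 0.98 in KO.

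Among ion channels and second messenger genes, the calls were few and of moderate size. Cacna2d3 encodes an auxiliary subunit of voltage-gated calcium channels. Its SNc arrays lay between 9.76 and 9.84 and its VTA arrays between 9.20 and 9.35, a difference of 0.54 ± 0.08 (adjusted p of 0.0411 in limma) that was 0.52 in WT and 0.55 in KO. It was the only call among 48 tested genes of sodium, calcium, HCN and TRPC channels and calcium handling, whose median was 0.13. Pde4b encodes a phosphodiesterase that breaks down cyclic AMP. Its SNc arrays lay between 7.97 and 8.14 and its VTA arrays between 7.28 and 7.52, a difference of 0.66 ± 0.07 (adjusted p of 0.0222). It was the only call among 52 tested RGS proteins and cyclic nucleotide enzymes, whose median was 0.12. Rgs6, a regulator of G protein signalling in that list, differed by 0.66 ± 0.15 with 0.92 in WT and 0.40 in KO, and was not called (adjusted p of 0.0794).

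The remaining higher genes had varied roles. Lin28b, an RNA-binding protein that blocks let-7 maturation, had SNc arrays of 7.46 to 7.81 and VTA arrays of 6.51 to 6.81, and its difference was 1.01 ± 0.11 (adjusted p of 0.0222 in limma). Eif4h, a translation initiation factor, was 1.13 ± 0.12 higher (adjusted p of 0.0222), with SNc arrays of 8.32 to 8.77 and VTA arrays of 7.11 to 7.53. St3gal1, a sialyltransferase, was 0.87 higher by its brighter probeset, whereas its other probeset differed by -0.22. Ldoc1, Ppp4r4 (a regulatory subunit of protein phosphatase 4), Luzp2 and CK137956 were 0.93, 0.70, 0.63 and 0.73 higher. Outside the rule for named genes and picked after their values were seen, Rbfox1 (a neuronal splicing factor, 0.74), Prkaa2 (a catalytic subunit of AMP-activated kinase, 0.71), Npy1r (a neuropeptide Y receptor, 0.58) and Mef2a (an activity-dependent transcription factor, 0.48) were also called.

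Mir181b-1 was the only miRNA gene named among the calls, and its values lay further apart between the genotypes than between the regions. It read 6.41 and 6.75 in SNc WT, 4.87 and 4.53 in SNc KO, 5.47 and 5.86 in VTA WT and 3.41 and 3.66 in VTA KO. SNc was above VTA within each genotype, by 0.92 in WT and 1.16 in KO, but SNc KO lay below VTA WT, so that the regions overlapped over all 8 arrays. The pooled difference was 1.04 ± 0.15 (adjusted p of 0.0405 in limma). All VTA arrays and all KO arrays were below the minimum, so the gene entered the test only through SNc WT. The array reads the precursor gene and not the mature miRNA. The mature forms from this gene (RefSeq, GRCm38.p6, plus strand, chr1:137966650-137966673 and chr1:137966690-137966710) are shown with the seed, bases 2 to 8, in capitals:
mmu-miR-181b-5p: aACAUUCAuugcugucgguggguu
mmu-miR-181b-1-3p: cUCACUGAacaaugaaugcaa
The 5p seed is shared with the 5p forms of miR-181a, miR-181c and miR-181d. Mir181b-2, whose 5p form has the same sequence, differed by -0.25, Mir181c by -0.12 and Mir181d by -0.35, and none of these was called.

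Genes of motile cilia made up the largest group lower in SNc, that is, higher in VTA. Of 38 tested genes of the list of ependymal and other ciliated cells, 7 were called lower and 0 higher, where 0.415% of all genes tested by their brightest probeset were called lower. An unadjusted p under 0.05 in this direction was reached by 37 of the 38, against 10.7% of all genes tested. The sign was negative in both genotypes for 37. The median of the list was -0.93, with -1.42 in WT and -0.68 in KO. The members called by their brightest probeset were Mia, Dynlrb2, Ak7, Enkur, Tmem212, Cfap126 and Ccdc40. Over all probesets of the list 15 were called lower, which added dimmer probesets of Spef2, Dnah3, Dnah12 and Iqca. The number called was 28 without VTA KO replicate 2 and 0 to 3 without any other array, being 0 without SNc WT replicate 1, VTA WT replicate 2 or VTA KO replicate 1. The median then stayed between -0.83 and -1.18.

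Dynlrb2, a light chain of dynein, was near background in SNc. It read 5.41 and 5.34 in SNc WT and 5.59 and 5.20 in SNc KO, against 8.89 and 9.20 in VTA WT and 8.00 and 7.44 in VTA KO. The difference was -3.00 ± 0.29 (adjusted p of 0.0191 in limma), and it was larger in WT (-3.67) than in KO (-2.33). Enkur, a protein of the ciliary axoneme, read 6.95 and 7.08 in SNc WT, 6.67 and 6.88 in SNc KO, 9.57 and 9.30 in VTA WT and 8.77 and 8.30 in VTA KO. Unlike Dynlrb2 it was above the minimum in every array. Its difference was -2.09 ± 0.18 (adjusted p of 0.0151).

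Capsl, a calcium-binding protein gene, and Akap14, an anchoring protein of protein kinase A found in cilia, had the smallest p-values in this direction. Capsl read 5.01 and 5.75 in SNc WT, 4.78 and 4.52 in SNc KO, 8.68 and 8.50 in VTA WT and 7.56 and 7.10 in VTA KO, a difference of -2.94 ± 0.21 (adjusted p of 0.00618 in limma). Akap14 read 5.36 and 4.99 in SNc WT, 5.13 and 5.30 in SNc KO, 6.99 and 6.76 in VTA WT and 6.89 and 6.74 in VTA KO, a difference of -1.65 ± 0.11 (adjusted p of 0.00618). Akap14 was unlike most of the group in that its VTA level hardly differed between genotypes, with -1.70 in WT and -1.60 in KO. All SNc arrays of both genes were below the minimum.

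Genes of cilia and flagella associated proteins were also among the calls. Cfap43 read 6.11 and 6.21 in SNc WT, 6.34 and 6.39 in SNc KO, 9.62 and 9.23 in VTA WT and 8.66 and 8.25 in VTA KO, and its difference was -2.68 ± 0.25 (adjusted p of 0.0191 in limma). The other 4 probesets of Cfap43 had the same sign. Of 25 tested genes with a Cfap symbol, 19 were lower in SNc in both genotypes, 7 were called lower by at least 1 probeset and 0 were called higher by the brightest, and their median was -1.05. Of all 13264 genes tested, 27.2% were lower in both genotypes and 0.475% were called lower by at least 1 probeset. These genes were grouped by symbol after their values were seen, and members low in SNc could enter the test through VTA alone. Mns1 (-2.11), Ccdc113 (-2.18), Pifo (-2.82), Drc7 (-1.34) and Map3k19 (-1.38) were also called, and all but the last are genes of the ciliary axoneme or of the making and disassembly of cilia. Foxj1, the regulator of motile cilium genes, read 5.75 to 6.01 in SNc and 6.01 to 6.35 in VTA, and its difference of -0.35 was not called.

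Genes of motile cilia are regulated by RFX factors, which bind the X-box. Its core, GTTGCC on either strand (GGCAAC), was searched in the RefSeq promoter windows of GRCm38.p6, from 250 bases before to 50 bases after each start. It was present in 12.5% of all 32851 windows and in 12.9% of the windows of genes tested. It was present in 18 of 65 windows of genes called lower in SNc (27.7%), in 6 of 54 windows of genes called higher (11.1%) and in 17 of 34 windows of the ciliated list (50.0%). An exact palindrome, this core followed by 2 free bases and its reverse complement, was in 31 of all windows (0.0944%). It was in 0 of those 65, 0 of those 54 and 0 of those 34. Forms with mismatches or another spacing were not searched, so these counts do not say that an X-box is absent. The bicoid-type homeodomain site TAATCC on either strand (GGATTA) was in 7.06% of all windows and 5.8% of those of genes tested, in 7 of the 65 (10.8%), in 5 of the 54 (9.26%) and in 3 of the 34 (8.82%). A match is a description of the letters and no evidence of binding. Of the called genes, 55 of 63 lower and 40 of 45 higher had a window among those searched. The windows of Dynlrb2 (plus strand, chr8:116504765-116505064), Enkur (minus strand, chr2:21205316-21205615) and Mns1 (plus strand, chr9:72438279-72438578) are shown, as cilium genes with an X-box core close to the start, with the core in capitals:
Dynlrb2: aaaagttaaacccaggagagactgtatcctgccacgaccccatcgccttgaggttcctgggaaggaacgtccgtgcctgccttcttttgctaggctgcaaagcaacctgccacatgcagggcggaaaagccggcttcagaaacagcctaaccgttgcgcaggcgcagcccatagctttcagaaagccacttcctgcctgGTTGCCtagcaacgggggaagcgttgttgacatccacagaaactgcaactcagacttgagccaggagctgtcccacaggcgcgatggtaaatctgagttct
Enkur: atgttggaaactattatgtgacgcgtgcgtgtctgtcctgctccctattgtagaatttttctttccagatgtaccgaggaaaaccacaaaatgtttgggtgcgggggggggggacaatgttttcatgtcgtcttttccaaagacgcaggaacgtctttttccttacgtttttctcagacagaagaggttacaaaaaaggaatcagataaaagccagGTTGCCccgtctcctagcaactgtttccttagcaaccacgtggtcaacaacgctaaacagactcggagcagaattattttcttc
Mns1: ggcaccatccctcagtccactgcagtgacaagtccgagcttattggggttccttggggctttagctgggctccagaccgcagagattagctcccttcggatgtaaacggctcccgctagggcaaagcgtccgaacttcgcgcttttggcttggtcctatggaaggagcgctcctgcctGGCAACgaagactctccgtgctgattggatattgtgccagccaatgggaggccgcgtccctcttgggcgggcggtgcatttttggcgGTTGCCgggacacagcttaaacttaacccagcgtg

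The summed linear signal of the 38 ciliated cell genes was 3053 and 2923 in SNc WT and 3146 and 3193 in SNc KO. In VTA it was 12017 and 9906 in WT and 7951 and 4652 in KO. The SNc arrays were thus nearly level, and the VTA arrays were spread over a range of their own, with VTA KO replicate 2 the lowest. The 9 tested genes of astrocytes and radial glia summed to 3704 to 3861 in SNc and 3269 to 5570 in VTA. The other members of that list, Gfap, Aldh1l1 and Nes, were below the minimum in all groups. The pericyte list summed to 834 to 2195 in SNc and 638 to 2662 in VTA, with VTA KO replicate 2 again lowest. The part of such cells in the differences below and above was not tested.

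**Figure D3:**
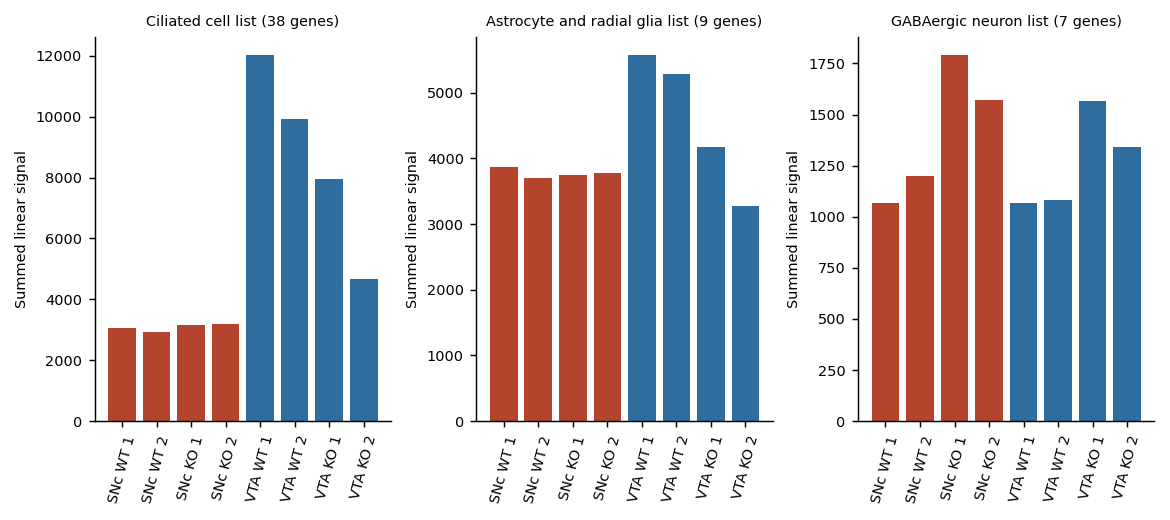
Summed linear signal of the tested genes of 3 marker lists on each array, with SNc in red and VTA in blue. The ciliated cell list lies between 2923 and 3193 in the SNc arrays and between 4652 and 12017 in the VTA arrays, whereas the ranges of the other two lists overlap between the regions.

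Beside the cilium genes, Nfix, a transcription factor of the nuclear factor I family, was lower in SNc. It read 6.44 and 6.79 in SNc WT, 7.14 and 6.85 in SNc KO, 8.42 and 8.44 in VTA WT and 8.26 and 8.08 in VTA KO. The groups did not overlap, and the difference was -1.50 ± 0.16, or 2.82-fold (adjusted p of 0.0222 in limma), with -1.82 in WT and -1.18 in KO. For Nfia and Nfib of the same family, which were examined after their values were seen, a dimmer probeset was called (-1.01 and -1.94, adjusted p of 0.0460 and 0.0487) and the brightest was not (-1.36 and -1.39, adjusted p of 0.0728 and 0.0537). These genes are active in glia and in late-born neurons alike.

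Vim, which encodes the intermediate filament vimentin of radial glia and ependymal cells, read 8.05 and 8.17 in SNc WT, 7.96 and 7.80 in SNc KO, 9.78 and 9.65 in VTA WT and 9.40 and 8.55 in VTA KO. It was the only call among the 9 genes of astrocytes and radial glia, with -1.35 ± 0.20 (adjusted p of 0.0436 in limma). Sox9 (-0.69), Slc1a3 (-0.65), Aqp4 (-0.51), Slc4a4 (-0.48) and Hes5 (-0.29) had the same sign in both genotypes and were not called. Glul (0.01) and Slc1a2 (-0.02) hardly differed. These and Fabp7, the remaining tested gene, did not have the same sign in both genotypes, so that 6 of the 9 were lower in SNc in both. The median of the list was -0.48. Mt2, a metallothionein gene, differed by -2.14 ± 0.28 (adjusted p of 0.0319), with SNc arrays of 5.25 to 6.23 and VTA arrays of 7.44 to 8.38.

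Further genes lower in SNc encode secreted proteins and receptors. Crhbp encodes the binding protein that holds corticotropin-releasing hormone. It read 6.42 and 7.08 in SNc WT, 7.37 and 7.53 in SNc KO, 7.99 and 7.75 in VTA WT and 8.81 and 9.12 in VTA KO. It differed from the cilium genes in that it read higher in KO than in WT in both regions and had its larger difference in KO (-1.52) rather than in WT (-1.12). The pooled difference was -1.32 ± 0.17 (adjusted p of 0.0348 in limma). Cxcr4, the receptor for the chemokine CXCL12, read 7.23 and 7.05 in SNc WT, 7.15 and 6.96 in SNc KO, 8.09 and 8.32 in VTA WT and 7.83 and 7.83 in VTA KO, a difference of -0.92 ± 0.11 (adjusted p of 0.0241). Dbi, the acyl-CoA-binding protein that also acts at GABA-A receptors, had SNc arrays of 9.81 to 10.04 and VTA arrays of 10.72 to 11.46, a difference of -1.20 ± 0.15 (adjusted p of 0.0299). Outside the rule for named genes and picked after their values were seen, Casr (the calcium-sensing receptor, -0.60) and Npr3 (a natriuretic peptide receptor, -0.67) were lower, and their differences in WT and KO were -0.60 and -0.61 for Casr and -0.55 and -0.79 for Npr3.

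The known markers of the regions were described next, whatever their test. Of 18 tested markers of SNc and ventral SNc, 1 was called higher (Lix1) and 0 were called lower. By unadjusted p (under 0.05) 8 were higher and 2 lower, against 15.9 and 10.7% of all genes tested. The sign was the same in both genotypes for 10 of the 18, of which 8 were positive, against 68.6% of all genes tested. The median was 0.40, with 0.52 in WT and 0.01 in KO. Of 17 tested markers of VTA and the dorsal tier, 0 were called, while 12 were lower and 3 higher by unadjusted p (under 0.05). All 17 kept their sign between genotypes, and 13 were negative and 4, Nts among them, positive. The median was -0.49, with -0.71 in WT and -0.21 in KO. Without VTA KO replicate 2, 4 SNc markers were called higher and 1 lower, and 1 VTA marker was called lower.

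Slc6a3 came closest to a call among genes of dopamine synthesis, storage and signalling, of which 0 of 13 were called. It read 10.98 and 11.00 in SNc WT, 9.85 and 10.17 in SNc KO, 10.46 and 10.37 in VTA WT and 9.48 and 9.55 in VTA KO. SNc was above VTA within each genotype, by 0.58 in WT and 0.49 in KO, and the pooled difference was 0.54 ± 0.09 (adjusted p of 0.0532 in limma). Th differed by -0.06. Ndnf, a secreted neurotrophic factor, read 8.84 and 8.96 in SNc WT, 7.37 and 7.38 in SNc KO, 7.47 and 7.72 in VTA WT and 6.84 and 6.98 in VTA KO, with differences of 1.30 in WT and 0.47 in KO (adjusted p of 0.0667 over both). Aldh1a1, a retinoic acid-synthesizing enzyme of ventral SNc neurons, read 11.26 and 11.38 in SNc WT, 8.33 and 8.69 in SNc KO, 11.38 and 11.16 in VTA WT and 9.78 and 9.45 in VTA KO. It did not separate the regions in WT (0.05) and was lower in SNc than in VTA in KO (-1.11, adjusted p of 0.223 over both).

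Among the 13 VTA markers lower in SNc in both genotypes, Neurod6, a basic helix-loop-helix factor, had the largest difference. It read 5.54 and 5.45 in SNc WT, 4.70 and 5.38 in SNc KO, 8.20 and 8.45 in VTA WT and 5.67 and 6.18 in VTA KO, with -2.83 in WT and -0.88 in KO. The arrays of the regions did not overlap, but the pooled difference of -1.85 ± 0.40 was not called (adjusted p of 0.0722 in limma). Otx2, a homeodomain factor of VTA neurons, read 6.25 and 5.62 in SNc WT, 8.03 and 8.10 in SNc KO, 7.76 and 7.79 in VTA WT and 8.41 and 8.65 in VTA KO. SNc KO was above VTA WT, and the difference was -1.84 in WT and -0.46 in KO (adjusted p of 0.0890 over both). Grp, the gastrin-releasing peptide gene, differed by -1.69 in WT and -0.33 in KO, and Cck, the cholecystokinin gene, by -1.30 and -0.32. Vip, which encodes vasoactive intestinal peptide, had the larger difference in KO, with -0.64 in WT and -0.94 in KO. Calb1 (calbindin) differed by -0.71 and -0.12.

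**Figure D4:**
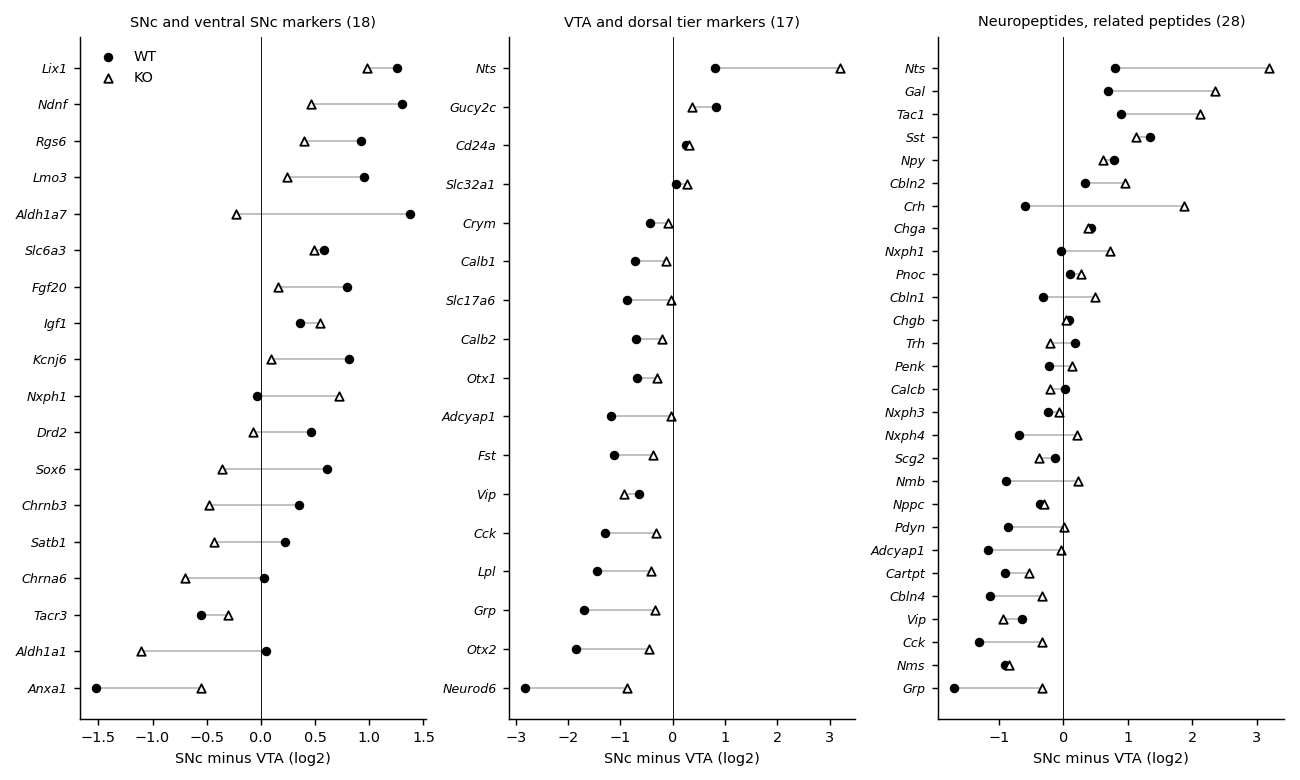
SNc minus VTA difference (log2) of each tested gene of 3 lists in WT (filled circles) and in KO (open triangles), ordered by the pooled difference. Most VTA markers lie left of 0 in both genotypes and nearer to 0 in KO, SNc markers lie on both sides of 0 in KO, and Nts, Gal and Tac1 lie far to the right in KO.

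The size of the called differences was compared between the genotypes. All 117 probesets had an unadjusted p under 0.05 in limma within WT and within KO, with the spread estimated from all 8 arrays. They were chosen by the pooled test on the same arrays, so this is no separate support. By adjusted p, 34 of them were called within WT and 9 within KO, 8 of these in both, while 82 were called in neither. Of the 72 lower probesets 60 had the larger difference in WT, as had 22 of the 45 higher ones. The difference between the genotypes was tested for every probeset. None of the 14666 reached an adjusted p under 0.05 in limma, and 1279 (8.72%) reached an unadjusted p under 0.05, 26 of them among the 117. Without VTA KO replicate 1, 8 reached the adjusted threshold. Within WT 86 probesets were called (0.586%), 15 higher (0.102%) and 71 lower (0.484%). Within KO 14 were called (0.0955%), 6 higher (0.0409%) and 8 lower (0.0545%).

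The remaining lists held few calls or none. Cadherins, protocadherins and synaptic adhesion genes had 0 calls among 55, but 22 were higher and 2 lower in SNc at an unadjusted p under 0.05, against 15.9 and 10.7% of all genes tested, and the median was 0.20. Cdh12, a cadherin, had the largest difference of this list (0.77), and Cntn6 and Cntn4, contactins of the axonal membrane, had 0.68 and 0.67. There were 0 calls among 45 axon guidance genes, 51 potassium channel subunits, 57 receptor subunits, 56 growth factors and their receptors, 27 genes of oxidative phosphorylation, 15 synuclein and familial Parkinson disease genes and 19 transcription factors of midbrain dopaminergic neurons, each by its brightest probeset. The last list holds Nfia and Nfib, of which a dimmer probeset was called lower. Their medians lay between -0.11 and 0.16. General neuronal genes had 0 calls among 14 and a median of 0.16. The lists of pericytes, oligodendrocytes, microglia, endothelial cells, dividing cells, stress and apoptosis genes, red blood cells and serotonergic neurons also had 0 calls, and of noradrenergic genes 0 were above the minimum. The sex-linked list had 0 calls among 4, but 3 were higher in SNc at an unadjusted p under 0.05 and in both genotypes, and the median was 0.41. These were the Y-linked genes Eif2s3y (0.55), Uty (0.56) and Kdm5d (0.27), while Xist differed by -0.12. The part of the sex of the pooled pups in the regional differences was not tested.

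**Figure D5:**
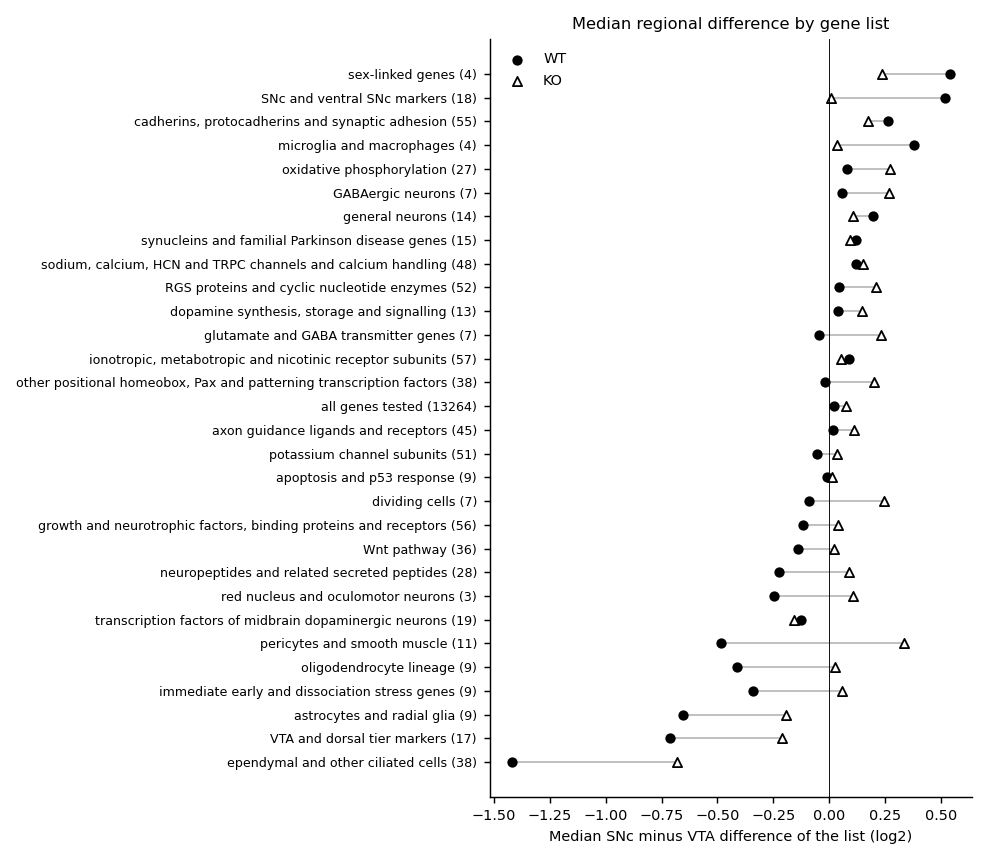
Median SNc minus VTA difference (log2) of each gene list with at least 3 tested genes, in WT (filled circles) and in KO (open triangles), with the number of genes tested in brackets. The ciliated cell list lies lowest at -1.42 in WT and -0.68 in KO, and the median over all 13264 genes is 0.02 in WT and 0.08 in KO.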

How the data were processed

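EGFP-positive cells of 4 groups with 2 samples each were hybridized to Affymetrix Mouse Gene ST arrays after linear amplification. The deposited table holds log2 expression that the authors computed by RMA, with RMA Express by the methods. Its version and the build behind the probesets were not given in the sources used here. The methods also name the LPE algorithm, which compares 2 groups without a covariate and was not used. Their p threshold is printed with the sign of at least 0.05, and at most 0.05 was used.

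Of 35512 probesets, 21789 carry 1 gene symbol in the platform annotation, 1621 several and 12102 none. The gene IDs of 21698 of the single-symbol probesets were found in a gene table of GRCm38.p6, and 0 symbols changed. All 22112 probesets whose mean reached 60 in 1 group or more were fitted with limma 3.58.1 in R 4.3.3 (region and genotype, 5 residual and 2.45 prior degrees of freedom) and p-values were adjusted over all of them. Among them 150 were called, 33 without a single symbol. The values within each genotype and their difference came from a fit with 1 mean per group. The calling was also run on simulated data with independent noise, the same spread in all groups and no genotype effect. Those runs cannot say how it behaves with the uneven spread between groups seen here. The precision is that of 2 arrays per group.

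The named genes were the called ones with the 12 largest differences per direction among those over the minimum in all groups, the 8 largest among the rest, the 10 smallest p-values and all called list members, with the SNc and VTA markers, Th and Pitx3, by the brightest probeset of each gene. The genes and lists were chosen with earlier results of these data known. Alternatives varied the filter, scaling, variance model, model terms, threshold and the arrays included. Promoter and miRNA sequences are from RefSeq (GRCm38.p6).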

Additional observations from a re-analysis of the deposited data

Results flagged for a closer look

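In Sox6 and Chrnb3, both SNc markers, the regional difference pointed in opposite directions in the genotypes on every array. Sox6, a transcription factor gene, read 7.77 and 7.73 in SNc WT against 7.15 and 7.14 in VTA WT, and 6.39 and 6.30 in SNc KO against 6.56 and 6.85 in VTA KO. Its difference was 0.61 in WT and -0.36 in KO. The change between genotypes was -0.97, with an unadjusted p of 0.00128 and an adjusted p of 0.270 in limma, so that it did not pass the correction over all probesets. Chrnb3, a nicotinic acetylcholine receptor subunit gene, read 10.74 and 10.75 in SNc WT against 10.51 and 10.28 in VTA WT, and 9.02 and 9.34 in SNc KO against 9.56 and 9.77 in VTA KO. Its difference was 0.35 in WT and -0.48 in KO, a change of -0.83 (unadjusted p of 0.00856 and adjusted p of 0.386 in limma).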

How the results depend on the processing

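Wherever they were refitted, the 117 regional calls kept their sign under all alternatives run. They had been chosen for the same sign in both genotypes, so this is no test of their stability. With 2 arrays per group the number past the threshold varied widely. Against 117 calls (45 higher and 72 lower) there were 32 with no filter, 50 with a mean of at least 60 in all 4 groups, 184 with a minimum of 100, 659 when only single-symbol probesets were fitted, 65 after quantile normalization, 769 with array weights, 266 with 1 mean per group and 573 at the thresholds of the study. Subtraction of array medians gave 548 calls and moved the split to 417 higher and 131 lower. With each array left out in turn the count lay between 0 and 706. Wherever they were tested, 26 probesets (6 higher and 20 lower) were called in every alternative other than leaving out an array.

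Within WT (86 calls) there were 54 with no filter, 31 with a mean of at least 60 in all groups and 0 to 366 with an array left out. Within KO (14 calls) there were 0 with no filter, 8 with a mean of at least 60 in all groups and 0 to 762 with an array left out. The difference between genotypes gave 0 to 8 calls with an array left out. The causes were not tested.

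Samples with the same replicate number hardly deviated together (correlations of 0.006 to 0.098). Such low values cannot exclude pairing, since pools from the same animals need not deviate together. Whether SNc and VTA pools with the same number shared animals is not stated, so the main model did not pair them. With the replicate number as a block there were 47 regional calls (12 higher and 35 lower), of which 43 were among the 117, 0 within KO and 60 within WT.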

Other observations

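The 7 genes with at least 2-fold differences of opposite sign in the genotypes were Gng11, Mgp, Myl9, Olfr1045, Postn, Ppic and Rgs5. All but Olfr1045 were lower in SNc in WT and higher in SNc in KO. Postn, a secreted matrix protein gene, read 5.52 and 5.33 in SNc WT, 8.58 and 8.80 in SNc KO, 6.95 and 6.95 in VTA WT and 7.51 and 7.67 in VTA KO. Its change between genotypes was 2.62, with the smallest adjusted p of that test (0.0995 in limma), which did not pass. Rgs5, a pericyte gene, read 8.27 and 7.83 in SNc WT, 10.16 and 9.98 in SNc KO, 10.40 and 9.96 in VTA WT and 10.29 and 6.22 in VTA KO, so that the 2 VTA KO arrays stood far apart. The tested pericyte list had a median of -0.48 in WT and 0.34 in KO and 0 calls, and its pooled median of -0.16 became -0.43 without VTA KO replicate 2.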
